A study of Mus musculus with 19 samples.

Results

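Among the 10 mouse liver tumours examined here, 20 genes were strongly expressed in 1 tumour and low in the other 9. Members were protein-coding or long noncoding RNA (lncRNA) genes whose highest level over the 10 tumours was at least 5 CPM (counts of a gene per 1000000 counts of all genes in that library) and at least 8 times the second-highest level. Of 11100 genes that reached 5 CPM in some tumour, 20 met this rule (0.18%), and among all 24777 protein-coding and lncRNA genes counted, the share was 0.0807%. Of the 20 members, 19 were protein-coding and 1 was an lncRNA. The members were selected on their measured levels in these 10 libraries, so the levels, ratios and number of members are a description and carry no test.

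The tumours came from male mice labelled Ctnnb1tm1Mmt (HET) and Gt(ROSA)26Sortm1(MYC)Djmy (HOM), which had received the vector AAV8.TBG.PI.Cre.rBG at 640000000 genome copies per mouse. All 10 tumours therefore shared an activatable β-catenin allele and a MYC transgene, and belonged to 1 group of the design. The TBG promoter drives Cre in hepatocytes, and the study describes tumours that grew from single hepatocyte clones and were collected whole at end stage, so stroma, vessels and blood were sequenced together with tumour cells. Ages were not given in the labels, and control livers, high AAV control livers and the other 3 tumours were not analysed here. Hepatocyte genes were present in every tumour, with Alb (albumin) at 12729 to 24399 CPM, Hnf4a (a hepatocyte transcription factor) at 602 to 884 CPM and Glul (glutamine synthetase, a β-catenin target in liver) at 6024 to 14818 CPM. Total counts ran from 11687034 in tumour 07 to 36964427 in tumour 13, so that the 3 counts used as the limit of a count of 0 stood for 0.0812 to 0.257 CPM. Each tumour was a single library. The intervals below are 95% intervals that cover counting error alone, because molecules were not tagged before amplification.

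Tumours founded by separate clones can differ through their own later genetic and epigenetic changes and through the cells they recruit. Fetal growth genes such as Igf2 and its imprinted neighbour H19 are active in fetal liver, are low in adult liver, and return in some liver tumours. Serum amyloid A genes are acute phase genes, which hepatocytes turn on under the cytokine interleukin 6, and Fcer1a encodes the ligand-binding chain of the high-affinity IgE receptor of mast cells and basophils. In bulk samples such as these, fewer cells of a type and less RNA per cell cannot be told apart.

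A stretch of the upstream windows of Saa1 and Saa2 is shown because these members lie side by side on chromosome 7 and were high in the same tumour. A window is the 250 bases before a RefSeq transcript start on build GRCm38.p6. The Saa1 window (chr7:46742981-46743230, reverse strand) precedes an inner start, so that 201 of its bases lie within the full span of the gene, while the Saa2 window (chr7:46751583-46751832, forward strand) lies wholly before the gene. Each run below is 30 bases, 5′ to 3′ on the strand of the gene (Saa1 at chr7:46743144-46743173 and Saa2 at chr7:46751639-46751668), and capitals mark a match to TTNNGCAA, a form of the motif of C/EBP factors, searched on both strands.
Saa1: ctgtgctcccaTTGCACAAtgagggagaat
Saa2: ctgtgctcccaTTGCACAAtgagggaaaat
The whole windows were identical at 238 of 251 aligned positions (94.8%), and both held the site TTGCACAA, beginning 182 bases before that start in Saa1 and 183 bases before it in Saa2. The motif was present in 9.56% of 32851 RefSeq promoter windows of this length, and also in windows of the members Ak1, Fcer1a and Tmigd3. No member window held the NF-kB motif searched, TTCNNNGAA (STAT) or GTTAAT (HNF1), which were present in 1.41%, 7.02% and 6.43% of all windows. CTTTGAT, a TCF/LEF motif of β-catenin signalling, was present in 3.21% of all windows and in a window of Mep1a and of Tmigd3, CACGTG (the E-box bound by MYC) in 6.02% and in Ano3, and TATAAA in 12.4% and in Ano3, Fcer1a and Mgst2. Promoter windows were found for 15 of the 20 members, 23 windows in all, since a gene can have several starts. These matches describe letters in a window and not binding.

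The members were spread unevenly over the tumours. Tumour 09 held 11 of the 20 (55.0%), tumour 05 held 3, tumours 04 and 06 held 2 each, tumours 07 and 10 held 1 each, and tumours 08, 11, 12 and 13 held 0. Of 12400 genes with a mean of at least 1 CPM, 20.7% were highest in tumour 09 in CPM, the largest share of the 10 tumours. The share fell to 11.5%, behind tumours 05 (18.1%) and 07 (12.8%), after TMM scaling, a correction for a few abundant genes taking up reads. The shares in CPM were 6.83% in tumour 04, 16.5% in 05, 4.71% in 06, 7.71% in 07, 5.06% in 08, 7.7% in 10, 9.34% in 11, 8.67% in 12 and 12.8% in 13. The median of all genes in tumour 09 lay 0.18 log2 units above the median of the other tumours in CPM and 0.01 above it after TMM scaling. The plot of the number of genes by ratio shows 33 genes for tumour 09 when a 4-fold ratio was asked for, of 80 over all tumours, and 4 of 6 when a 16-fold ratio was asked for.

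**Figure D1:**
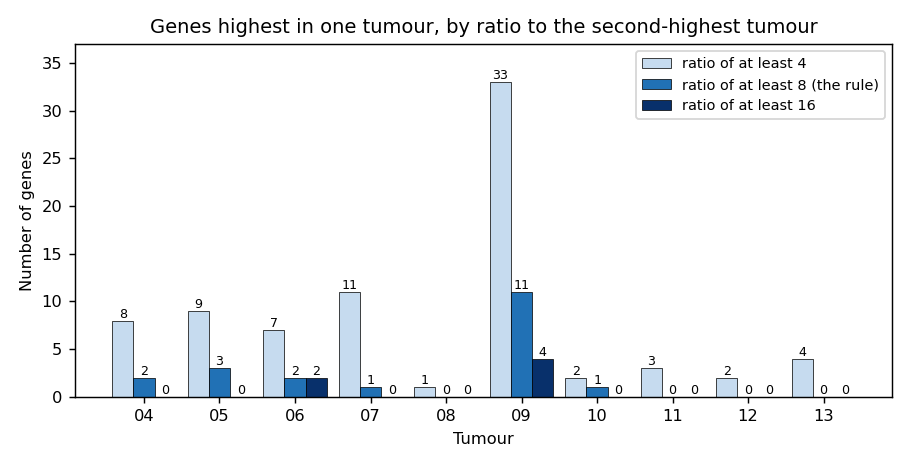
Number of genes (vertical axis) that reached 5 CPM in 1 tumour and exceeded the second-highest tumour by at least 4, 8 or 16 times, for each of the 10 tumours. Tumour 09 has the tallest bar at each ratio, with 33, 11 and 4 genes.

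The median ratio of a member to its second-highest tumour was 13.3, with a range from 8.16 to 290, and the median level in its own tumour was 27.0 CPM, with a range from 5.31 to 1693 CPM. Low did not mean absent in the other tumours. At least 1 count was found in each of the other 9 tumours for 13 members, and 7 members had 0 counts in some tumour. The other 9 tumours were all under 1 CPM for 4 members. The second-highest tumour carried the same library tag as the highest for 4 members (Saa1, Saa2, Aldh1a2 and Ano3) and another tag for 16. Over the 11080 other genes that reached 5 CPM, the second-highest tumour carried the same tag in 21.8%. The meaning of the tag is not in the labels, and tumours that share it may be from 1 animal.

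**Figure D2:**
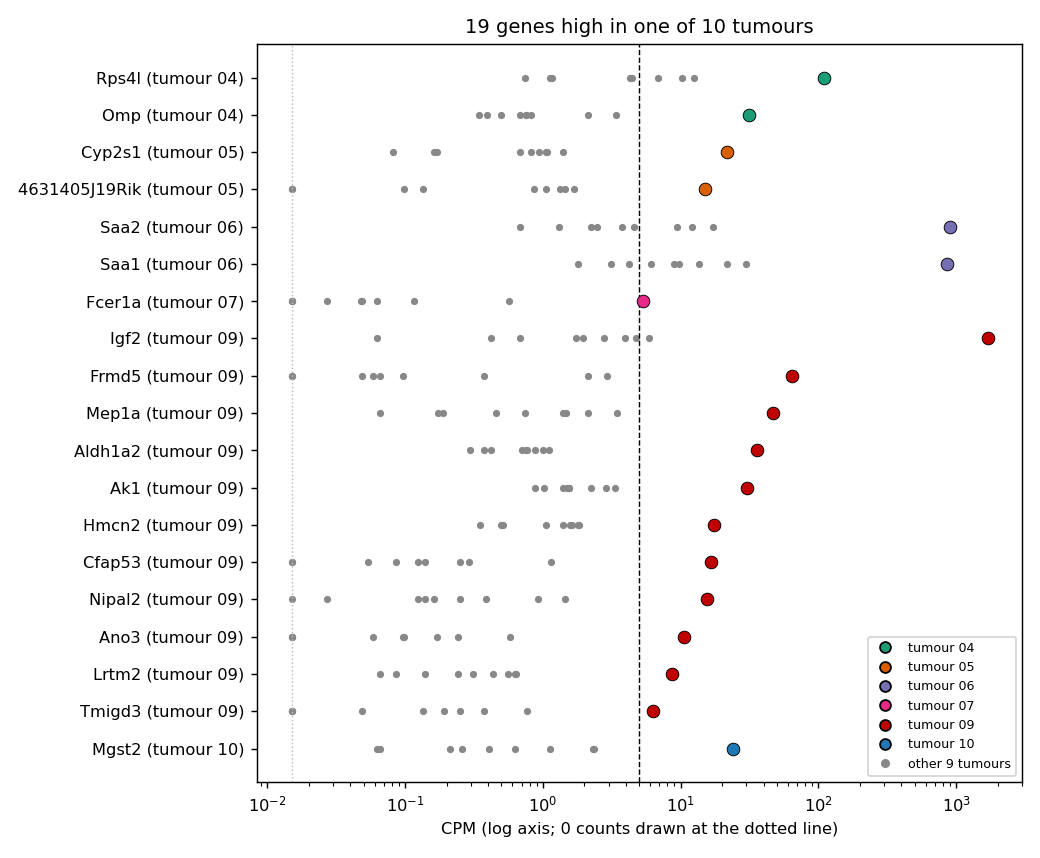
Level of 19 of the 20 members in each of the 10 tumours, in CPM on a log axis; large coloured points mark the tumour in which the gene was highest, small grey points the other 9, and the dashed line the minimum of 5 CPM. Igf2 lies at 1693 CPM in tumour 09 with the other tumours at or below 5.84 CPM, and Fcer1a, nearest to the minimum, at 5.31 CPM in tumour 07.

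Igf2, a fetal growth factor that signals through the IGF1 and insulin receptors, was the member with the largest ratio (ENSMUSG00000048583, chr7:142650768-142666816, reverse strand, on GRCm38.p6, the RefSeq build of all positions given). It was at 1693 CPM in tumour 09 (23974 counts, interval 1672 to 1714 CPM), where it ranked 55th among all genes and took 0.169% of the gene counts. In the other 9 tumours it ran from 0.0624 CPM (1 count, tumour 05) through a median of 1.97 CPM to 5.84 CPM in tumour 08, which gives a ratio of 290 (interval 243 to 349). The tumours thus fell into 1 very high value and 9 values at or below 5.84 CPM. The antisense lncRNA Igf2os overlaps Igf2 and was at 3.04 CPM there, with 0.0541 CPM or less elsewhere. Whether the counting used the strand was not stated, so reads of this pair cannot be told apart.

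H19, the maternally expressed lncRNA that lies 72.6 kb from Igf2, was not a member because it was high in a second tumour. Its level was 7926 CPM in tumour 09, 3013 CPM in tumour 13 and 1.62 to 131 CPM in the remaining 8. In tumour 13 Igf2 was at 4.73 CPM, below its level in tumour 08. The neighbours were thus both high in tumour 09, and H19 alone was high in tumour 13.

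Genes around the IGF signal were read from a list chosen after the members were known. Of its 17 genes with a mean of at least 1 CPM other than Igf2, 7 were highest in tumour 09 and 1 was lowest there, beside the 20.7% of all genes that peaked in that tumour. Igf2r, the receptor that clears Igf2, was at 404 CPM against at most 288 CPM elsewhere. Igf1r, the signalling receptor, was at 3.39 CPM against at most 2.44 CPM. The binding protein Igfbp7 was at 158 CPM against at most 122 CPM, and Igfbp5 at 48.2 CPM against at most 39.4 CPM. The RNA-binding protein Igf2bp3 was at 15.5 CPM against at most 11.1 CPM. H19, described above, was also among the 7. Igfbp4, another binding protein, was the gene lowest in tumour 09, at 1237 CPM against 1399 to 2154 CPM. Further genes of the list lay below the median of the other tumours. Among them were Igfbp2 (209 CPM, median elsewhere 782 CPM), Igfbp1 (1297 CPM, median 2187 CPM) and Igfals (24.9 CPM, median 54.7 CPM).

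Other genes of fetal liver and progenitor cells also peaked in tumour 09 in part. On a list of oncofetal and imprinted growth genes, 10 of 19 tested genes other than Igf2 were highest in tumour 09, with a median of 1.41 log2 units over the median of the other tumours (1.24 after TMM scaling), beside 20.7% of all genes highest there and a median of 0.18 over all genes. H19, Igf2bp2 and Igf2bp3 were among the 10 and were also counted on the IGF list. The glypican Gpc3 was at 70.5 CPM against at most 62.4 CPM, the osteopontin gene Spp1 at 89.7 CPM against at most 46.1 CPM, and the imprinted gene Mest at 12.4 CPM against at most 9.41 CPM. Afp, the classic fetal liver protein, was second in tumour 09 at 59.8 CPM, with up to 131 CPM elsewhere. The imprinted Meg3, on another chromosome, was at 1.55 CPM there and up to 57.0 CPM elsewhere.

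Aldh1a2, a retinaldehyde dehydrogenase that makes retinoic acid, had the second-largest ratio of tumour 09 (chr9:71215789-71296243). It was at 35.7 CPM in tumour 09 and between 0.294 and 1.11 CPM in the other 9 (median 0.755 CPM, ratio 32.1). The tumour in second place was tumour 10, which carries the same tag. Of 14 other genes of retinoic acid synthesis and response with a mean of at least 1 CPM, on a list chosen after the members were known, 0 were highest in tumour 09 and 1 was lowest. That gene was Cyp26a1, which degrades retinoic acid and is a retinoic acid target, at 1.13 CPM against 1.69 to 17.5 CPM. The related Aldh1a3, with a mean under 1 CPM, was at 3.04 CPM against at most 1.20 CPM, and the abundant Aldh1a1 was at 796 CPM, within the 428 to 1563 CPM of the other tumours.

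Frmd5, a FERM-domain protein of cell junctions, was at 64.6 CPM in tumour 09 (chr2:121545529-121807087). The other tumours ran from 0 to 2.94 CPM, with a median of 0.0653 CPM (ratio 22.0), and tumours 04 and 13 stood above the remaining 7, which were at or below 0.372 CPM. Mep1a, the α subunit of the secreted metalloprotease meprin, was at 47.2 CPM (chr17:43474324-43504143) and at 0.0653 to 3.45 CPM elsewhere (ratio 13.7). Its partner Mep1b was at 0.494 CPM there and up to 0.980 CPM elsewhere. One subunit of meprin was thus high without the other.

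Ak1, an adenylate kinase that is abundant in muscle and brain, was at 30.2 CPM in tumour 09 (chr2:32621758-32635058) and at 0.869 to 3.31 CPM elsewhere (ratio 9.13). It no longer met the rule with TMM scaling (ratio 7.81) or DESeq2 size factors (ratio 7.69). Its family members Ak3 (200 CPM) and Ak4 (32.2 CPM) lay within the range of the other tumours. Ano3, a membrane protein of the anoctamin family, was at 10.6 CPM (chr2:110655201-110950391) and at 0 to 0.580 CPM elsewhere (ratio 18.3), again with tumour 10 in second place. Ano1, the calcium-activated chloride channel of that family, was at 3.81 CPM in tumour 09 against at most 1.96 CPM.

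Hmcn2, a very long extracellular matrix protein, was at 17.6 CPM in tumour 09 (chr2:31314255-31460738) and at 0.350 to 1.82 CPM elsewhere (ratio 9.66, or 7.80 and short of the rule with 0.5 CPM added). Cfap53, a protein of motile cilia, was at 16.7 CPM and at 0 to 1.15 CPM elsewhere (ratio 14.5). Foxj1, the regulator of motile cilia, was at 1.77 CPM in tumour 09 against at most 0.869 CPM. Nipal2, of a family of magnesium transporters, was at 15.5 CPM (chr15:34572796-34679207) and at 0 to 1.45 CPM elsewhere (ratio 10.7). Lrtm2, a leucine-rich repeat membrane protein, was at 8.61 CPM (chr6:119315133-119332270) and at 0.0653 to 0.639 CPM elsewhere (ratio 13.5). Tmigd3, with 89 counts and 6.28 CPM (chr3:105870858-105924044), had the smallest ratio of the 20 members, 8.16 (interval 4.35 to 16.9), and its neighbours in that order were within its interval. It too fell short of 8 with TMM scaling (7.28) and with DESeq2 size factors (7.21).

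The members of tumour 09 were set beside genes of other cells, because stroma was part of each sample. On a list of stellate cell and fibroblast genes, 14 of 16 genes with a mean of at least 1 CPM were highest in tumour 09 (20.7% of all genes), and 10 of 16 after TMM scaling (11.5% of all genes). Their median was 2.24 log2 units over that of the other tumours, or 2.09 after TMM scaling. The whole list summed to 2293 CPM in tumour 09 and to 268 to 1645 CPM in the other tumours, with tumour 07 next, and no gene of the list was at 0 in tumour 09. Lum (lumican) was at 23.8 CPM against at most 7.27 CPM, and Pdgfra (a receptor of fibroblasts) at 18.9 CPM against at most 6.04 CPM. Col1a1 (type I collagen) led by a smaller margin, 1.17 times, at 648 CPM against at most 551 CPM. Endothelial genes summed to 448 CPM in tumour 09 (166 to 552 CPM elsewhere), and macrophage genes to 634 CPM (203 to 562 CPM elsewhere). Of 5 mesothelial genes with a mean of at least 1 CPM, 2 were highest in tumour 09. These were Ptgis (10.9 CPM against at most 3.14 CPM) and Slpi (91.1 CPM against at most 43.0 CPM), while Krt19, Lrrn4 and C3 were not highest. Below that mean, Upk3b, Upk1b, Wt1, Gpm6a, Bnc1 and Nkain4 were also highest there, at 2.90 CPM or less, and Msln was not. The list summed to 7885 CPM in tumour 09 against 6222 to 18902 CPM elsewhere, and C3 alone gave 7718 CPM of that sum. Of 5 keratin and squamous genes, 3 were highest in tumour 09, with a median of 2.90 log2 units over the median of the other tumours (2.75 after TMM scaling) and a sum of 114 CPM against 11.8 to 87.5 CPM. Of 11 bile duct and gallbladder genes, some of which are also on the oncofetal list, 4 were highest there, with a median of 0.96 log2 units, and the list summed to 1571 CPM, below tumours 04 (1878 CPM), 10 (1831 CPM) and 11 (1728 CPM). Ly6d alone gave 1026 CPM of the sum in tumour 09 and was not highest there. Of 6 muscle genes, 3 were highest in tumour 09, with a median of 1.28 log2 units and a sum of 115 CPM against 18.9 to 91.0 CPM. The lists of B and plasma cell genes (19.8 CPM), germline genes (307 CPM) and homeobox genes (28.5 CPM) also had their highest sums in tumour 09. Hepatocyte genes summed to 56573 CPM in tumour 09, within the 48995 to 75429 CPM of the others. The part of stromal, epithelial, muscle or other cells in the levels of these 11 members was not tested.

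**Figure D3:**
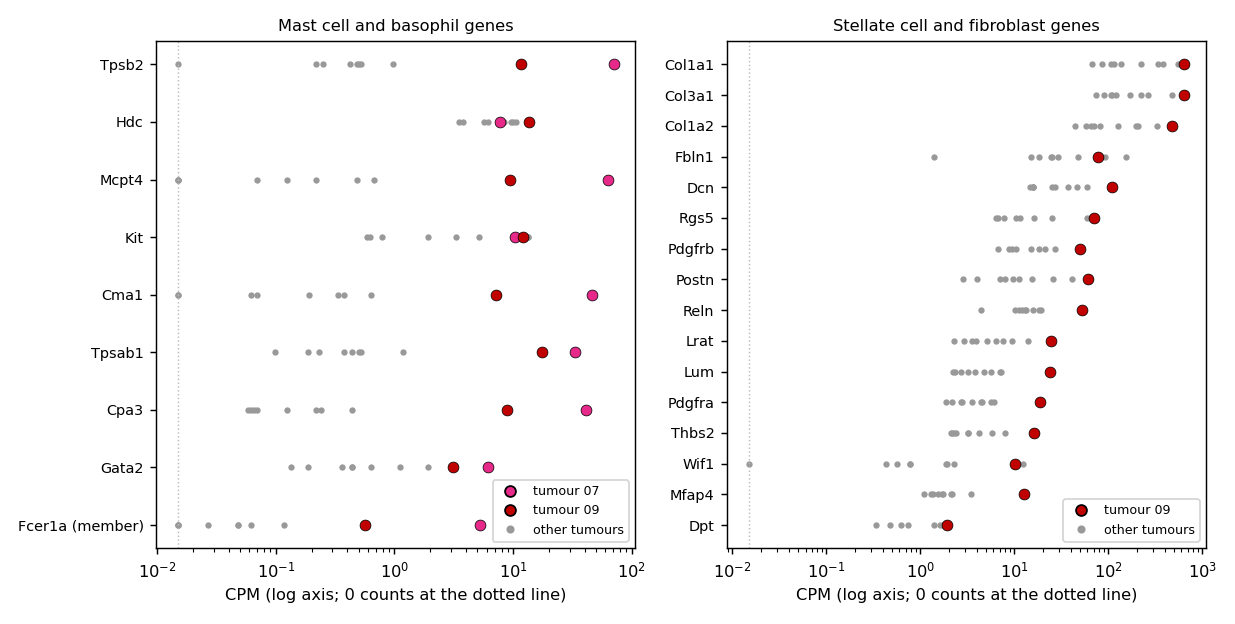
Genes of mast cells and basophils (left) and of stellate cells and fibroblasts (right) in the 10 tumours, in CPM on a log axis, with tumours 07 and 09 in colour on the left and tumour 09 in colour on the right. Tumours 07 and 09 stand apart for Cpa3, Mcpt4, Cma1, Tpsb2 and Tpsab1, and tumour 09 is the highest point for 14 of the 16 stromal genes.

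Tumour 06 held the neighbouring pair Saa2 and Saa1. Saa2 (ENSMUSG00000057465, chr7:46751833-46754313, forward strand) was at 901 CPM in tumour 06 and between 0.676 and 17.0 CPM in the others, with a median of 3.78 CPM and a ratio of 52.9 (interval 46.9 to 59.8). Saa1 (ENSMUSG00000074115, chr7:46740497-46743181, reverse strand) was at 854 CPM and between 1.79 and 29.9 CPM in the others, with a median of 8.89 CPM and a ratio of 28.6 (interval 26.1 to 31.3). Both were second-highest in tumour 05, which carries the same tag. The genes are near-identical copies, so the split of reads between them is uncertain, and their sum was 1754 CPM there and 46.9 CPM or less elsewhere. Counts of Saa2 were 1.05 times those of Saa1 in tumour 06 and between 0.366 and 0.881 times in the other 9 tumours.

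The other acute phase genes were not used by the rule. Of 21 listed genes with a mean of at least 1 CPM other than Saa1 and Saa2, 15 were highest in tumour 06, in CPM and after TMM scaling alike, beside 4.71% of all genes in CPM and 7.27% after TMM scaling. Their median was 1.82 log2 units over that of the other tumours, where the median of all genes was -0.06. The fibrinogen chain gene Fga was at 16435 CPM in tumour 06 against at most 6902 CPM, haptoglobin (Hp) at 10906 CPM against at most 4389 CPM, and the serum amyloid P gene Apcs at 128 CPM against at most 26.1 CPM. Orm1, an α1-acid glycoprotein, was at 683 CPM against at most 125 CPM. Crp, Hamp, Il1rn, Socs3, Cxcl1 and Saa4 were not highest in tumour 06, and Socs3, a feedback inhibitor of cytokine signalling, was at 70.5 CPM there and up to 137 CPM elsewhere. The list without Saa1 and Saa2 summed to 64043 CPM in tumour 06 and 26305 CPM in tumour 05, the next tumour, with a median of 13445 CPM over the 9 other tumours. Lcn2, which hepatocytes and neutrophils both make, was at 1491 CPM there against at most 477 CPM elsewhere. Neutrophil and macrophage genes were set beside these values. Of 15 macrophage genes, 6 were highest in tumour 06, with a median of 1.01 log2 units, and they summed to 562 CPM, below tumour 09 (634 CPM). Their lowest sum was in tumour 05 (203 CPM), the next tumour for the acute phase list. Of 5 listed neutrophil genes with a mean of at least 1 CPM, Lcn2 among them, 3 were highest in tumour 06, with a median of 2.49 log2 units over that of the other tumours. The 17 neutrophil genes other than Lcn2 summed to 43.8 CPM in tumour 06, where 3 of them were at 0, and to 2.64 to 30.9 CPM elsewhere, with tumour 09 next. The part of neutrophils or macrophages in these levels was not tested.

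**Figure D4:**
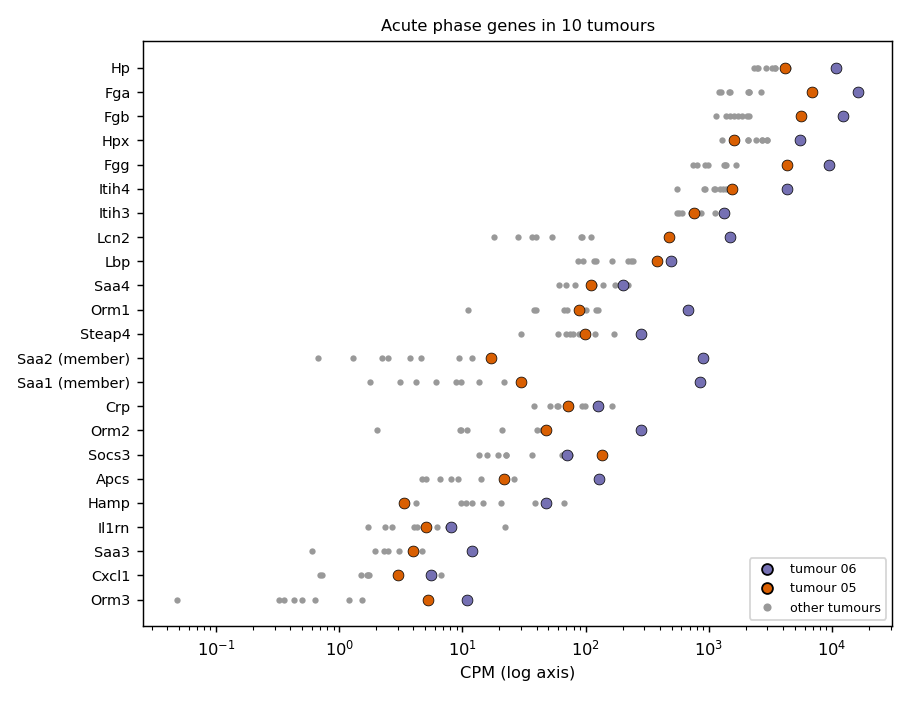
Acute phase genes with a mean of at least 1 CPM in the 10 tumours, in CPM on a log axis, with tumours 06 and 05 in colour and the other tumours in grey. Saa1 and Saa2 show the widest gap, and tumour 06 is the highest point for 15 of the 21 genes other than these.

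Fcer1a was the 1 member of tumour 07 and rested on few reads (chr1:173221269-173227232). It had 62 counts in tumour 07, or 5.31 CPM (interval 4.07 to 6.80 CPM). Tumour 09 was next with 8 counts, or 0.565 CPM, a ratio of 9.39 (interval 4.48 to 22.7), and the other 8 tumours had 0 to 2 counts. With 0.5 CPM added the ratio was 5.45, and Fcer1a no longer met the rule. Other mast cell and basophil genes were not used by the rule. Of 8 listed genes with a mean of at least 1 CPM, 6 were highest in tumour 07, beside 7.71% of all genes, and the same number was found after TMM scaling (12.8% of all genes). Kit (10.4 CPM, up to 13.3 CPM elsewhere) and Hdc (7.79 CPM, up to 13.6 CPM elsewhere) were not highest there. The carboxypeptidase Cpa3 was at 41.0 CPM in tumour 07 and 8.90 CPM in tumour 09, with the others at or below 0.435 CPM. The proteases Mcpt4 (62.7 and 9.39 CPM), Tpsb2 (70.2 and 11.6 CPM) and Cma1 (46.6 and 7.20 CPM) showed the same pair of tumours above the rest. The sum of the whole list without Fcer1a was 279 CPM in tumour 07 and 83.7 CPM in tumour 09, and 6.82 to 19.7 CPM in the other 8.

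The other chains of that receptor did not meet the rule. The β chain gene Ms4a2 had 5 counts in tumour 07 (0.428 CPM) and at most 0.141 CPM elsewhere, and the γ chain gene Fcer1g, shared with other receptors of myeloid cells, was at 15.7 CPM against 4.06 to 14.0 CPM. Mcpt8, a protease of basophils, was at 0 counts in tumour 07, which allows up to 0.257 CPM, and so was Mcpt1. Tumour 07 was the shallowest library, and it also held the highest sums of erythroid and megakaryocyte genes (6085 CPM, with tumour 09 next at 2162 CPM) and of endothelial genes (552 CPM). The part of blood or vessels in the level of Fcer1a was not tested.

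Tumour 04 held Rps4l and Omp. Rps4l, a gene close in sequence to the ribosomal protein gene Rps4x, was at 111 CPM in tumour 04 (1580 counts, chr6:148354656-148355596), where the other tumours ran from 0.745 to 12.5 CPM with a median of 4.38 CPM (ratio 8.85, interval 7.91 to 9.92). Rps4x was at 113 CPM in tumour 04 and at 62.4 to 145 CPM elsewhere, so it lay within the range of the other tumours. Reads shared between the copies could be counted for either, which makes the level of Rps4l uncertain. Omp, the olfactory marker protein of smell neurons, was at 31.5 CPM (450 counts, chr7:98143359-98145447), where the others ran from 0.342 to 3.37 CPM (ratio 9.35, interval 7.04 to 12.6). Omp lies inside Capn5, a calpain protease gene, which was also highest in tumour 04, at 23.1 CPM against 6.59 to 16.1 CPM, and the nearest gene outside, Myo7a, was at 23.0 CPM against 9.66 to 18.0 CPM. Without a stated strand setting, reads of Omp and Capn5 that overlap are uncertain.

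Of the 3 members of tumour 05, Cyp2s1 and the lncRNA 4631405J19Rik are described. Cyp2s1, a cytochrome P450 found mainly outside the liver, was at 21.8 CPM (chr7:25802469-25816525) and at 0.0812 to 1.40 CPM elsewhere (ratio 15.6, interval 9.94 to 25.8). On a list of drug and steroid metabolism genes, 1 of 15 genes with a mean of at least 1 CPM was highest in tumour 05 and 3 were lowest, beside 16.5% of all genes highest there. The 1 was the P450 gene Cyp2c39, at 564 CPM against at most 495 CPM elsewhere. Among P450 genes of the same family that were looked up beside Cyp2s1, Cyp2a5 was at 1038 CPM, within the 555 to 2673 CPM of the other tumours, and Cyp2f2 was lowest in tumour 05 at 0.125 CPM. The lncRNA 4631405J19Rik was at 14.9 CPM (chr2:93029348-93033445), with the others at 0 to 1.69 CPM (ratio 8.80). It fell short of 8 with 0.5 CPM added (7.02) and with counts thinned to the shallowest library (7.91).

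Tumour 10 held Mgst2 alone, a microsomal glutathione S-transferase that can make leukotriene C4. It was at 23.9 CPM (494 counts, chr3:51636912-51682675) and at 0.0621 to 2.35 CPM elsewhere, with tumours 08 and 04 at nearly the same second level of 2.35 and 2.31 CPM (ratio 10.2). Its relatives Mgst1 (1791 CPM), Mgst3 (71.5 CPM) and Ltc4s (0.242 CPM) lay within the range of the other tumours.

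The genes next to the members give levels that the rule did not use. For each member the nearest gene on either side with a mean of at least 1 CPM was taken, which gave 40 places and 38 different genes, because Saa1 and Saa2 share Saa4 and Hps5. Of the 40, 13 (32.5%, exact binomial interval 18.6 to 49.1) were highest in the same tumour as the member, beside 19.1% of 21663 places around the other genes that reached 5 CPM. In tumour 09 the number was 9 of 22 (40.9%), beside the 20.7% of all genes highest in that tumour. The median difference of flanking genes in the tumour of the member was 0.31 log2 units. Neighbours can share reads or regulation with each other, so places are not independent.

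Most neighbours differed far less between tumours than the member itself did. H19, beside Igf2, stood 6.71 log2 units above the median of the other tumours, and 2.63 times above tumour 13. Chst1 (3.29 log2 units) and Trp53i11 (2.40 log2 units), on either side of 4631405J19Rik, were both highest in tumour 05, Trp53i11 at 93.8 CPM against at most 67.9 CPM and Chst1 at 7.36 CPM against at most 4.13 CPM. Mbd1, a methyl-CpG-binding protein gene 0.363 kb from Cfap53, was at 182 CPM in tumour 09 against at most 69.4 CPM. Pop1 and Stk3, on either side of Nipal2, were both highest in tumour 09 by small margins, at 9.39 CPM against at most 9.17 CPM and at 12.8 CPM against at most 10.5 CPM. Both neighbours of Cyp2s1, Rps4l, Saa1, Saa2, Mgst2, Frmd5, Ak1 and Ano3 were highest in other tumours than the member. Next to Fcer1a, Cadm3 was highest in tumour 07 at 3.25 CPM (at most 2.47 CPM elsewhere) and Apcs was lowest there.

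**Figure D5:**
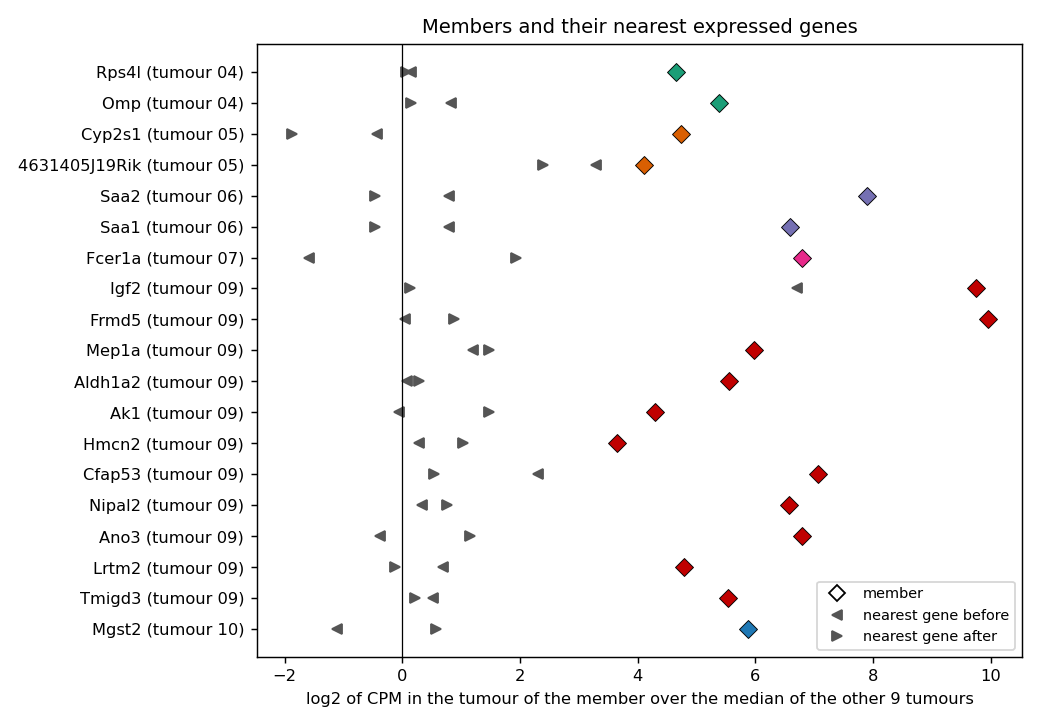
For 19 of the 20 members (diamonds) and their nearest expressed genes on either side (triangles), the log2 of the CPM in the tumour of the member over the median of the other 9 tumours. H19 beside Igf2, at 6.71, is the triangle farthest to the right, and most triangles lie much nearer to 0 than their diamond.

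The members lay on 10 chromosomes, with 5 on chromosome 2 and 5 on chromosome 7. The 4 members of tumour 09 on chromosome 2 (Frmd5, Ak1, Hmcn2 and Ano3) were not neighbours, and the median gene of chromosome 2 in tumour 09 lay 0.15 log2 units above the median of the other tumours, close to the 0.18 of all genes. Saa1 and Saa2, with 8.65 kb between them, were the 1 pair of members of the same tumour within 500 kb. Overlap with another protein-coding gene was found for 6 members. Besides Omp these were Rps4l in Tmtc1 (1.75 CPM in tumour 04, at most 1.20 CPM elsewhere), 4631405J19Rik in Prdm11 (2.87 CPM in tumour 05, 1.57 to 3.81 CPM elsewhere), Lrtm2 in Cacna2d4 (1.34 CPM in tumour 09, at most 0.171 CPM elsewhere), Tmigd3 with Adora3 (0.424 CPM in tumour 09, at most 0.856 CPM elsewhere) and Ano3 with Muc15 (0 counts throughout).

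Since longer transcripts give more reads, levels of different members are comparable only per length of exon. Saa2 (357 CPM per kb), Saa1 (324 CPM per kb) and Igf2 (275 CPM per kb) stood at the top on that scale, Rps4l followed at 82.9 CPM per kb and Omp at 14.7 CPM per kb, and Hmcn2 was at 1.06 CPM per kb. The median exon length was 4.18 kb for the members and 6.40 kb for the genes that reached 5 CPM.

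Near the thresholds, membership turned on small differences. The members just inside the ratio were Tmigd3 (8.16), 4631405J19Rik (8.80) and Rps4l (8.85), and the genes just outside it were Tbx1 in tumour 11 (7.98), Styk1 in tumour 04 (7.73) and Gdpd5 in tumour 09 (7.52). Fcer1a was just inside the minimum level, and Plcd4 (4.94 CPM, ratio 8.53) and Rassf10 (4.52 CPM, ratio 11.1) in tumour 09 were just outside it. The counting interval of the ratio began above 8 for 10 members and below 8 for the other 10.

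Most gene lists held no member. Of 22 lists of cell types and gene families, 4 held a member, and these held 4 of the 20: Igf2 (on the oncofetal and the growth factor list), Saa1, Saa2 and Fcer1a. The lists of pancreas, bile duct, stomach and intestine, T and B cell, neuronal, germline, homeobox and keratin genes held 0. The other 16 members belonged to none of these 22 lists.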

How the data were processed

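Polyadenylated RNA of whole mouse liver tumours was extracted with Trizol and sequenced from stranded mRNA libraries. Gene-level read counts, without normalisation, were deposited by the authors in 1 table. The submitters' processing notes name TopHat2, HTSeq and GRCm38; the study's methods name other programs, and the strand setting was not stated in the sources used here. Columns were used for tumours 04 to 13, whose library numbers each match 1 sample title, on the assumption that title numbers are library numbers; the 9 other columns of 19 were not used. The 5 summary lines were left out of totals.

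Symbols, gene types and exon lengths came from GENCODE M39 on GRCm39 by stable identifier (34199 of 39179 had a symbol). Positions came from RefSeq on GRCm38.p6 by symbol (20 of 20 members). CPM was computed in Python 3.11 with numpy 2.4.6 and pandas 2.3.3, and intervals with scipy 1.17.1: exact binomial for levels and exact conditional binomial for ratios. TMM factors were computed in edgeR 4.0.16 after filterByExpr, and size factors in DESeq2 1.42.0. Log2 differences of gene lists and of all genes carried an offset of 0.5 CPM, and those of members and flanking genes carried none. The code that applies the rule was tested on simulated data.

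Members and lists were chosen with earlier results of these data known, and the lists of IGF, retinoic acid and hepatocyte genes after the members were seen. Named members were the 5 with the highest CPM of each tumour, the 10 with the largest ratios, those on lists, those within 500 kb of one another, and the 3 on each side of the ratio threshold. Lrtm2, Tmigd3, flanking, overlapping and related genes were named to account for the members, and 1 member of tumour 05 is not reported here.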

Additional observations from a re-analysis of the deposited data

Results flagged for a closer look

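Dixon's gap ratio divides the distance between an extreme tumour and the next by the range of all 10, and it was taken for 30 measures. It was above the critical value of 0.466 for 3 of them, and chance flags about 1 in 20 groups (0.05). The summed acute phase genes of tumour 06 without Saa1 and Saa2 had a gap ratio of 0.467, barely over that limit, with 64043 CPM against 26305 CPM in tumour 05. In tumour 12, which held 0 members, the summed bile duct and gallbladder genes were lowest (486 CPM against at least 1081 CPM, gap ratio 0.592). The summed growth factor genes without Igf2 were also lowest in tumour 12 (445 CPM, gap ratio 0.490), on a log2 scale in each case.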

How the results depend on the processing

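No paired analysis was possible because all tumours form 1 group. The number of genes stayed within 1.5 times of 20 with TMM scaling (20), DESeq2 size factors (20), a minimum of 10 CPM (17), 0.5 CPM added (16), thinning to the shallowest library (20), all gene types (20) and Saa1 and Saa2 summed (19, an alternative chosen after seeing the data). Both scalings lost Ak1 and Tmigd3, gained Mcpt4 and Tbx1, and left 9 of 20 in tumour 09 in place of 11. Adding 0.5 CPM lost 4631405J19Rik, Fcer1a, Hmcn2 and Tmigd3, and a minimum of 10 CPM lost Fcer1a, Lrtm2 and Tmigd3. Thinning lost 4631405J19Rik and Tmigd3 and gained Gdpd5 and Rassf10. The number moved, by construction, to 42 (22 in tumour 09) at a minimum of 1 CPM, to 55 (29) with 10 counts as minimum, to 80 (33) at a ratio of 4, to 6 (4) at a ratio of 16, to 36 (13) against tumours of another tag, and to 10 (6) when the lower end of the counting interval had to reach 8, chosen after seeing the data. Leaving out 1 tumour gave 21 to 28 genes, of which 11 to 18 in tumour 09 where it was kept; that number rose to 17 without tumour 07 and to 18 without tumour 08. Without tumour 09, 22 genes met the rule, 9 of them among the 20. The share of flanking genes was 25.0% with TMM scaling (background 17.3%), 27.5% at 5 CPM (19.6%) and 22.5% with 3 genes a side (18.4%). The depth limits members at few counts, such as Fcer1a with 62.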

Other observations

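A different set of genes was high in a pair of tumours and low in the other 8. With the second-highest of the 10 levels at least 5 CPM and at least 8 times the third, 9 of 10600 genes qualified, and 1 of the 9 pairs carried the same tag. H19 shared tumours 09 and 13. The mast cell proteases Tpsab1, Tpsb2, Mcpt4, Cpa3 and Cma1 shared tumours 07 and 09. Pnliprp2, a pancreatic lipase relative, was at 24.1 CPM in tumour 09 and 15.1 CPM in tumour 10, the pair with the same tag, and at most 1.24 CPM elsewhere. The gut hormone gene Cck was at 15.0 CPM in tumour 09 and 8.05 CPM in tumour 08, and the homeobox gene Pitx1 at 8.38 CPM in tumour 08 and 5.65 CPM in tumour 09.

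The mirror image, a gene low in 1 tumour and at least 5 CPM and 8 times higher in each other tumour, was found for 18 of 8973 genes (0.201%). Tumour 12, which held 0 members, held 12 of the 18, tumour 05 held 3, tumour 07 held 2 and tumour 04 held 1, while tumour 09 held 0. Wnt4, a secreted Wnt ligand, was at 1.18 CPM in tumour 12 and at least 113 CPM elsewhere. The neuropeptide-processing enzyme Cpe was at 1.80 CPM there against at least 46.0 CPM, the glypican Gpc1 at 8.36 CPM against at least 109 CPM, and the bile duct keratin Krt19 at 1.04 CPM against at least 9.52 CPM. In tumour 05 the Kupffer cell genes Clec4f (0.562 CPM against at least 15.7 CPM) and Cd5l (2.37 CPM against at least 19.8 CPM) were low. Rpl29, a ribosomal protein gene, was at 1.54 CPM in tumour 04 and at least 47.4 CPM elsewhere, in the tumour in which the ribosomal protein relative Rps4l was high. These genes were picked on their values, which allows no test.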
